A study of Mus musculus with 9 samples.

Results

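The genes described here mark macrophages and other myeloid cells, the phagocytes of tissues and blood. They were chosen by name from knowledge of these cells, although earlier results of these data were known. There were 42 of them among 54347 genes listed. The 42 genes were 3 genes of lineage and growth, 10 pan-macrophage and lysosomal genes, 4 integrins and chemokine receptors, 3 chains of complement C1q, 5 Fc receptors and adapters, 4 MHC class II genes, 5 scavenger and tissue-resident genes, 4 genes of lipid handling and phagocytosis, and 4 polarization and cytokine genes. Of these, 41 reached the expression needed for a test, at least 1 CPM (counts relative to the library total, scaled between libraries by the TMM method) in at least 3 libraries, and Tnf did not.

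RNA was sequenced from 6 tumors of INS-p25OE mice and from 3 samples of normal islets, 1 library each. INS-p25OE mice carry tetOp-p25GFP and Ins2-rtTA, so that doxycycline in the drinking water switches on p25, an activator of the kinase Cdk5, under control of the insulin promoter, and thus selectively in β-cells. Doxycycline was given from weaning, at 3 to 4 weeks of age, and the age at tumor collection was not given in the sources used here. Functional tumors (hormone-secreting) are M1, M2 and M3, and non-functional tumors are M4, M5 and M6. Normal islets, labelled as C57BL/6 β islets, are NI1, NI2 and NI3, and the study used transgene-negative littermates, housed with the bi-transgenic animals, as normal controls. All mice were kept on the C57BL/6 background. M2 came from a female and the other libraries from males. Nothing in the labels says which samples shared an animal, so p-values measure the spread between these samples.

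Macrophages depend on the growth factor receptor CSF1R and on the transcription factor PU.1. Those resident in tissues take up dying cells, lipoproteins and debris through scavenger and phagocytic receptors and make most of the C1q of the body. Islets hold a resident population of them next to blood vessels and β-cells, known for presenting antigen on MHC class II molecules. Tumor-associated macrophages are known in many tumors for the mannose receptor, TREM2, GPNMB and arginase, among other genes. These examples were named with earlier results of these data known. Spp1, placed here in the same group as Trem2 and Gpnmb, had a log2 fold change of -0.49 in tumors against islets. In these bulk samples, fewer cells of a type and less RNA per cell cannot be told apart.

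The library labelled NI1 stood apart from the other islets. Its counts of Cdk5r1, the gene from which p25 derives, were 279.6 CPM, against 18.4 CPM in NI2, 12.5 CPM in NI3 and 149 to 401 CPM in the tumors. Over the 15532 tested genes it lay nearest to tumor M6, at a Euclidean distance of 39.6 on log2(CPM + 1), which was the smallest of all 36 pairs of libraries, while NI2 and NI3 were 60.1 apart. Of the 41 tested macrophage and myeloid genes, 27 differed by less than 1.2-fold between the library labelled NI1 and M6, where 79.0% of all tested genes did, and 9 differed by less than 1.2-fold between it and the mean of NI2 and NI3, where 33.9% of all genes did. The comparisons with islets were therefore run with and without that library, and a value given without naming the libraries is from all 9. Totals ran from 36468280 to 63637175 counts. M4 had 32.12% of its counts on mitochondrial genes, against 1.756% to 8.409% in the other libraries, and the limit of detection, set at 3 counts, was 0.0425 to 0.119 CPM. The tumors also had a lower sum over 8 β-cell markers, at 18195 to 116599.6 CPM. It was 121784 CPM in the library labelled NI1 and 327475 and 364983 CPM in NI2 and NI3. Most of this sum came from Ins1, Ins2 and Iapp. Of the other markers Mafa, Nkx6-1 and Ucn3 had log2 fold changes of 0.06, 0.14 and -0.16 in tumors against islets, and Slc2a2 and G6pc2 of -0.91 and -1.39. The islets were not free of other cells. Acinar enzyme markers summed to 13774 CPM in NI3, 925 CPM in NI2 and 731 CPM in the library labelled NI1. They summed to 51.9 to 403 CPM in non-functional tumors and to 1.01 to 1.11 CPM in functional tumors.

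Across all 9 libraries, most of these genes had higher counts in tumors than in islets, but none passed the test. In tumors against islets 34 of 41 genes had a positive log2 fold change, and the median of the 41 was 1.27, against 0.03 over all genes tested. At an adjusted p under 0.05 (quasi-likelihood test of edgeR, Benjamini-Hochberg adjustment over the tested genes), 0 of 41 were called, where 0.258% of all tested genes were. At an unadjusted p under 0.05, 24 of 41 were higher, where 10.7% of all genes were, and 2 were lower, where 9.14% of all genes were. DESeq2 on the same 9 libraries called 15 of 41, each higher, where it called 4.92% of all genes higher.

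Without the library labelled NI1, 14 of 41 genes rose in tumors and 0 fell, where 5.34% of all tested genes rose and 3.17% fell. The 14 genes were Cd68, Adgre1, Mpeg1, Ms4a7, Cx3cr1, Fcgr3, Mrc1, Msr1, Folr2, Lyve1, Trem2, Gpnmb, Arg1 and Nos2. The median log2 fold change of the 41 genes was then 1.67, against 0.05 over all genes. Without M6 as well, 14 of 41 rose, 13 of them among those 14, where 5.75% of all genes rose. Without the library labelled NI1 and M4, 12 rose, each of them among those 14, where 4.53% of all genes rose.

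Ordering the libraries without a test gave a similar list. In 10 of 41 genes all 6 tumors lay above all 3 islet libraries, where 4.50% of all tested genes did (Csf1r, Cd68, Adgre1, C1qc, Fcgr3, Mrc1, Msr1, Folr2, Lyve1 and Trem2). In 2 of 41 genes, Lyz1 and Il1b, all 6 tumors lay below the islets, where 3.17% of all genes did. The 6 tumors lay above NI2 and NI3 in 24 of 41 genes, where 16.6% of all genes did.

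**Figure D1:**
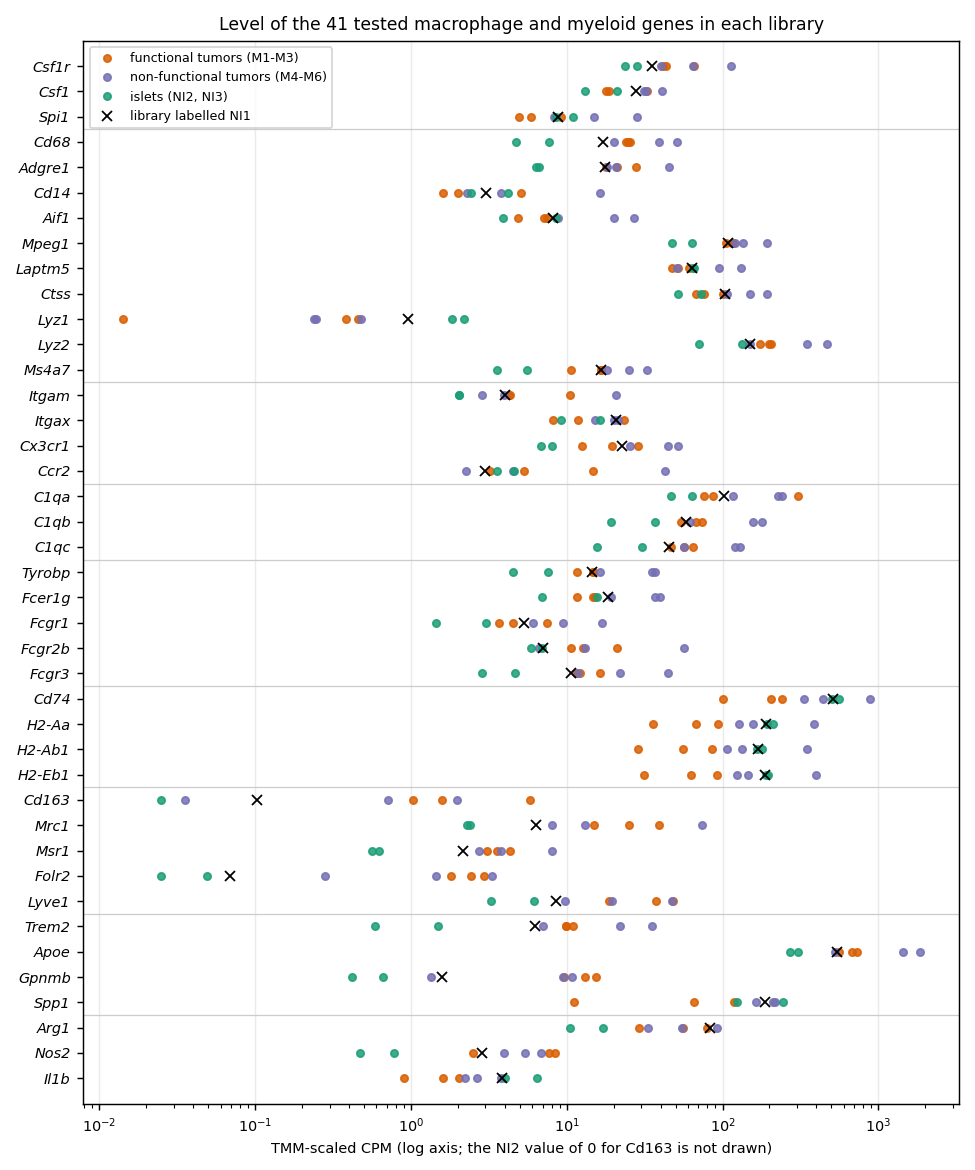
Level of each of the 41 tested genes in each library, in TMM-scaled CPM on a log axis, with genes grouped by role from lineage genes at the top to cytokines at the bottom. Orange points are functional tumors, purple points non-functional tumors, green points NI2 and NI3, and black crosses the library labelled NI1. For Cd68, Mrc1, Msr1 and Trem2 the green points lie to the left of every tumor and the cross lies nearer to the tumors, whereas for the MHC class II genes the orange points lie lowest.

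None of the 3 genes of lineage and growth passed the test in tumors against islets. Csf1r (ENSMUSG00000024621), the receptor that macrophages need for survival, had 41.3, 43.5 and 66.0 CPM in functional tumors, and 113, 64.6 and 40.0 CPM in non-functional tumors (M1 to M6 in order here and below). It had 35.2 CPM in the library labelled NI1, 28.1 CPM in NI2 and 23.5 CPM in NI3. The tumors lay above the islets without overlap, M6 being the lowest tumor and the library labelled NI1 the highest islet library. The log2 fold change was 1.08 (standard error, SE, 0.35, adjusted p = 0.168), and without the library labelled NI1 it was 1.25 (SE 0.42, adjusted p = 0.0985), so that Csf1r did not pass in either fit. Under 21 alternatives its adjusted p lay between 0.0185 and 0.582. Csf1, which encodes the ligand of that receptor, had a log2 fold change of 0.49 (SE 0.33), and Spi1, which encodes PU.1, of 0.33 (SE 0.52). Part of the Csf1r locus overlaps Hmgxb3 on the other strand, and whether counting used strand was not given in the sources used here.

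Among the 10 pan-macrophage and lysosomal genes, 4 rose in tumors without the library labelled NI1 and 0 with it. Cd68 (ENSMUSG00000018774, chromosome 11, 69664213 to 69666153), a lysosomal glycoprotein of macrophages, had 25.5, 24.6 and 23.9 CPM in functional tumors, and 39.0, 50.8 and 20.1 CPM in non-functional tumors. It had 17.2 CPM in the library labelled NI1, 7.71 CPM in NI2 and 4.73 CPM in NI3. Every tumor lay above every islet library, and the functional tumors were close to each other. The log2 fold change of Cd68 was 1.63 (SE 0.45, adjusted p = 0.152) with 9 libraries and 2.30 (SE 0.44, adjusted p = 0.0171) without the library labelled NI1.

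Adgre1 (ENSMUSG00000004730, chromosome 17, 57358691 to 57483527), which encodes the mouse macrophage antigen F4/80, had 21.0, 17.9 and 28.0 CPM in functional tumors, and 45.0, 20.7 and 18.2 CPM in non-functional tumors. It had 17.5 CPM in the library labelled NI1, 6.59 CPM in NI2 and 6.34 CPM in NI3. NI2 and NI3 were alike and far below the tumors, while the library labelled NI1 lay just under the lowest tumor. Tumors exceeded islets in Adgre1 by a log2 fold change of 1.31 (SE 0.43, adjusted p = 0.168) and 1.96 (SE 0.41, adjusted p = 0.0238) without that library.

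Mpeg1 (ENSMUSG00000046805, chromosome 19, 12460779 to 12465283), which encodes the pore-forming protein perforin-2 of phagocytes, had 116, 106 and 115 CPM in functional tumors, and 192, 136 and 120.3 CPM in non-functional tumors. It had 108 CPM in the library labelled NI1, 63.9 CPM in NI2 and 47.1 CPM in NI3. Only M2, at 106 CPM, fell below the library labelled NI1. For Mpeg1 the log2 fold change was 0.84 (SE 0.29, adjusted p = 0.173) and 1.24 (SE 0.28, adjusted p = 0.0289) without that library. Ms4a7 (ENSMUSG00000024672, chromosome 19, 11321039 to 11336146), a membrane protein of tissue macrophages, had 10.7, 16.5 and 16.5 CPM in functional tumors and 25.2, 32.9 and 18.2 CPM in non-functional tumors. It had 16.7 CPM in the library labelled NI1, 5.54 CPM in NI2 and 3.54 CPM in NI3. Ms4a7 differed by a log2 fold change of 1.21 (SE 0.51, adjusted p = 0.232) and 2.14 (SE 0.47, adjusted p = 0.0255) without that library. Under the alternatives the adjusted p of Cd68, Adgre1, Mpeg1 and Ms4a7 lay between 2.14e-06 and 0.66.

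The other 6 genes of the group did not pass in either fit. Lyz2, the lysozyme of macrophages and the most abundant of the 10 per length (161 CPM per kb of exon over the 9 libraries), had 174, 199 and 206 CPM in functional tumors, and 468, 349.6 and 149 CPM in non-functional tumors. It had 151 CPM in the library labelled NI1, 133 CPM in NI2 and 70.3 CPM in NI3, and only M6 lay within the range of the islets. Lyz1, the lysozyme of Paneth cells, is a close copy of Lyz2, so that reads may have been split between them, and it had 88 counts in the 6 tumors together against 220 counts in the 3 islet libraries. All 6 tumors lay below the islets in Lyz1, at 0.0142 to 0.475 CPM against 0.96 to 2.2 CPM. Its log2 fold change was -2.45 (SE 0.73, adjusted p = 0.161), and -2.73 (SE 0.81, adjusted p = 0.0666) without the library labelled NI1. Laptm5, a lysosomal protein of all blood cells, had 64.6 ± 0.815 CPM in the islets (SD, n = 3) and a log2 fold change of 0.17 (SE 0.33). Cd14, Aif1 and Ctss had log2 fold changes of 0.69, 0.87 and 0.60.

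Among the integrins and chemokine receptors, Cx3cr1 rose in tumors without the library labelled NI1, and the other 3 did not pass in either fit. Cx3cr1 (ENSMUSG00000052336), the fractalkine receptor of resident macrophages and monocytes, had 12.6, 19.5 and 28.6 CPM in functional tumors, and 51.4, 44.9 and 25.6 CPM in non-functional tumors. It had 22.7 CPM in the library labelled NI1, 8.0 CPM in NI2 and 6.86 CPM in NI3. Tumors exceeded islets in Cx3cr1 by a log2 fold change of 1.28 (SE 0.52, adjusted p = 0.223) and 2.03 (SE 0.54, adjusted p = 0.0484) without that library, and under 21 alternatives the adjusted p lay between 0.000914 and 0.654. Cx3cr1 did not pass without M6 as well (adjusted p = 0.0543), nor without M4 as well (adjusted p = 0.0597). The annotated span of Cx3cr1 also holds Wdr48, Gorasp1 and other genes. Whether they share transcript sequence with Cx3cr1, so that their reads could be among its counts, was not tested. Itgam, the integrin CD11b, had a log2 fold change of 1.53 (SE 0.69) with NI2 and NI3 both at 2.03 CPM. Itgax, the integrin CD11c, had one of 0.11 (SE 0.37). Ccr2, which draws monocytes out of blood, reached 42.8 CPM in M4 and lay between 2.27 and 14.8 CPM in the other tumors. Neutrophils share Itgam with macrophages, and none of 12 neutrophil markers reached the level for a test. Their sum was 1.44 to 4.77 CPM in all libraries, and Elane was at 0 in each.

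The 3 chains of complement C1q, which binds antibodies and dying cells and is made mainly by macrophages, had higher mean counts in tumors, but none passed in tumors against islets in either edgeR fit. C1qa, the most abundant per length at 135 CPM per kb, had 76.6, 306 and 87.2 CPM in functional tumors, and 226, 241 and 117 CPM in non-functional tumors. It had 102 CPM in the library labelled NI1, 63.5 CPM in NI2 and 47.0 CPM in NI3. C1qb had 54.1, 67.8 and 73.8 CPM in functional tumors, and 179, 157 and 62.0 CPM in non-functional tumors, against 58.5 CPM in the library labelled NI1, 36.6 CPM in NI2 and 19.2 CPM in NI3. C1qc had 46.8, 56.4 and 64.7 CPM in functional tumors, and 129, 121 and 56.7 CPM in non-functional tumors, against 45.6 CPM in the library labelled NI1, 30.5 CPM in NI2 and 15.7 CPM in NI3. M4 and M5 were the highest in C1qb and C1qc, and the tumors lay above the islets in C1qc. The log2 fold changes with 9 libraries were 1.31 (SE 0.49), 1.38 (SE 0.49) and 1.37 (SE 0.44) for C1qa, C1qb and C1qc, with adjusted p = 0.196, 0.185 and 0.165. Without the library labelled NI1 they were 1.67, 1.83 and 1.77, with adjusted p = 0.104, 0.0777 and 0.0576. Under 21 alternatives the adjusted p of C1qb and C1qc lay between 0.00213 and 0.617. In non-functional tumors alone, without the library labelled NI1, C1qb rose by a log2 fold change of 2.25 (SE 0.49, adjusted p = 0.0454) and C1qc by 2.14 (SE 0.44, adjusted p = 0.0378).

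C1qb and C1qc kept a nearly fixed proportion, and C1qa varied more. The ratio of C1qb to C1qc counts was 1.09 to 1.39 in the 9 libraries, and that of C1qa to C1qc was 1.35 to 2.99 in 8 of them and 5.44 in M2. The high C1qa level of M2 was thus not shared by C1qb or C1qc. The genes lie next to each other on chromosome 4 (136880129 to 136898803). The start region of C1qc is printed as one of those with a PU.1-type motif, GAGGAAGT read on either strand, which 3 of the 30 genes with a listed window hold (C1qc, Ctss and Spp1), as do 3.2% of all 32851 windows of 300 bases. It covers chr4:136892865-136893164 on the minus strand of GRCm38.p6 (RefSeq), from 250 bases before the gene start to 50 after it, and the capitals mark the motif, which reads ACTTCCTC on the printed strand.
C1qc: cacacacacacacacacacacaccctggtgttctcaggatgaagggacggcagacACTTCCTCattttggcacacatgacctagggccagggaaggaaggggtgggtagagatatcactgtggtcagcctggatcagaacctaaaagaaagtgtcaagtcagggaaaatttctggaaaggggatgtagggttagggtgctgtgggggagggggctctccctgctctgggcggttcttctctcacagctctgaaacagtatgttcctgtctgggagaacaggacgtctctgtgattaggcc

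Among the Fc receptors, which bind antibodies, and their signalling adapters, Fcgr3 rose in tumors without the library labelled NI1. Fcgr3 (ENSMUSG00000059498, chromosome 1, 171051174 to 171064935), an activating receptor for IgG, had 11.5, 12.1 and 16.4 CPM in functional tumors, and 44.5, 21.9 and 11.8 CPM in non-functional tumors. It had 10.7 CPM in the library labelled NI1, 2.85 CPM in NI2 and 4.63 CPM in NI3, and every tumor lay above every islet library. Fcgr3 differed by a log2 fold change of 1.69 (SE 0.57, adjusted p = 0.173) and 2.39 (SE 0.63, adjusted p = 0.0484) without that library. Tyrobp (ENSMUSG00000030579, chromosome 7, 30413760 to 30417585), the adapter DAP12 that carries the signal of TREM2, had 11.7, 14.7 and 14.7 CPM in functional tumors, and 35.2, 36.7 and 16.3 CPM in non-functional tumors. It had 14.6 CPM in the library labelled NI1, 7.59 CPM in NI2 and 4.49 CPM in NI3. Tyrobp had a log2 fold change of 1.27 (SE 0.50, adjusted p = 0.21) and 1.83 (SE 0.55, adjusted p = 0.0711) without that library, and in non-functional tumors alone it rose by 2.28 (SE 0.44, adjusted p = 0.0314) without that library and did not pass with 9 libraries (1.72, SE 0.46, adjusted p = 0.332). Under 21 alternatives the adjusted p of Fcgr3 and Tyrobp in tumors against islets lay between 0.00053 and 0.639. Fcer1g, Fcgr1 and Fcgr2b had log2 fold changes of 0.74, 1.29 and 1.60 and did not pass in either fit. Fcgr2b, the inhibitory receptor for IgG, was highest in M4 at 56.8 CPM and lay between 6.6 and 21.1 CPM in the other tumors.

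The scavenger and tissue-resident genes were the group with the largest median difference, at a log2 fold change of 2.97 with 9 libraries and 3.62 without the library labelled NI1. In the latter fit 4 of 5 rose. Mrc1 (ENSMUSG00000026712, chromosome 2, 14229392 to 14332057), the mannose receptor CD206, had 25.0, 14.9 and 39.0 CPM in functional tumors, and 73.4, 13.0 and 8.02 CPM in non-functional tumors. It had 6.33 CPM in the library labelled NI1, 2.39 CPM in NI2 and 2.3 CPM in NI3. The tumors spanned a wide range, from 8.02 to 73.4 CPM, above all islets. Mrc1 differed by a log2 fold change of 2.97 (SE 0.76, adjusted p = 0.148) and 3.62 (SE 0.92, adjusted p = 0.0427) without that library.

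Lyve1 (ENSMUSG00000030787, chromosome 7, 110850607 to 110863239), a hyaluronan receptor of lymphatic vessels and of resident macrophages, was the most abundant of the 5 per length (7.59 CPM per kb). It had 18.7, 37.3 and 48.4 CPM in functional tumors, and 19.6, 47.7 and 9.68 CPM in non-functional tumors, against 8.48 CPM in the library labelled NI1, 3.24 CPM in NI2 and 6.17 CPM in NI3. For Lyve1 the log2 fold change was 2.34 (SE 0.56, adjusted p = 0.139) and 2.68 (SE 0.69, adjusted p = 0.0434) without that library. Without M4 as well, its adjusted p was 0.0532. Msr1 (ENSMUSG00000025044, chromosome 8, 39581685 to 39642673), the class A scavenger receptor for modified lipoproteins, had 3.08, 3.59 and 4.31 CPM in functional tumors, and 8.01, 3.78 and 2.73 CPM in non-functional tumors. It had 2.16 CPM in the library labelled NI1, 0.561 CPM in NI2 and 0.62 CPM in NI3. All tumors lay above the islets, with a log2 fold change of 1.92 (SE 0.59, adjusted p = 0.161) and 2.84 (SE 0.59, adjusted p = 0.0224) without that library.

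Folr2 and Cd163 were close to the limit of detection in islets. Folr2 (ENSMUSG00000032725, chromosome 7, 101839988 to 101857194), a folate receptor of resident macrophages, had 2.44, 1.8 and 2.96 CPM in functional tumors, and 3.29, 1.45 and 0.282 CPM in non-functional tumors. The islets held 4, 2 and 1 counts in the library labelled NI1, NI2 and NI3, and the tumors 569 counts together. The pooled ratio of scaled counts in tumors to islets was 38.1 (95% exact interval 18.4 to 95.2, counting error only), and 51.8 (17.6 to 252) without the library labelled NI1. The fitted log2 fold change was 5.32 (SE 0.92, adjusted p = 0.0537) and 5.69 (SE 1.17, adjusted p = 0.0221), which depends on the prior count at such levels. Cd163, the hemoglobin scavenger receptor, had 1.59, 1.03 and 5.85 CPM in functional tumors, 1.98, 0.712 and 0.0352 CPM in non-functional tumors, and 6, 0 and 1 counts in the islets. Its pooled ratio was 37.2 (17.9 to 92.8), and it did not pass in either fit (adjusted p = 0.156 and 0.0704). M6, the tumor nearest to the library labelled NI1, was the lowest tumor in all 5 genes. Under the alternatives the adjusted p of Mrc1, Lyve1, Msr1 and Folr2 lay between 2.96e-06 and 0.582.

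Of the genes of lipid handling and phagocytosis, Trem2 and Gpnmb rose in tumors without the library labelled NI1. Trem2 (ENSMUSG00000023992, chromosome 17, 48346401 to 48354147), a lipid receptor that signals through Tyrobp, had 10.9, 9.82 and 9.85 CPM in functional tumors, and 22.1, 35.3 and 7.02 CPM in non-functional tumors. It had 6.27 CPM in the library labelled NI1, 0.586 CPM in NI2 and 1.49 CPM in NI3. The tumors lay above the islets, and the library labelled NI1 lay just under M6. Trem2 differed by a log2 fold change of 2.50 (SE 0.81, adjusted p = 0.168) and 3.93 (SE 0.83, adjusted p = 0.0231) without that library. Gpnmb (ENSMUSG00000029816, chromosome 6, 49036546 to 49070929), a glycoprotein of lipid-laden macrophages, had 13.0, 15.3 and 9.54 CPM in functional tumors, and 10.8, 9.53 and 1.35 CPM in non-functional tumors. It had 1.59 CPM in the library labelled NI1, 0.659 CPM in NI2 and 0.421 CPM in NI3, so that M6 fell among the islets and the other 5 tumors did not. For Gpnmb the log2 fold change was 3.46 (SE 0.76, adjusted p = 0.126) and 4.19 (SE 0.90, adjusted p = 0.0246) without that library. Under 21 alternatives the adjusted p of Trem2 and Gpnmb lay between 1.68e-07 and 0.582.

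Apoe, the lipoprotein that macrophages secrete, had the most counts per length of all 42 genes (359 CPM per kb). It had 559, 681 and 730.3 CPM in functional tumors, and 1442, 1840.4 and 526 CPM in non-functional tumors. It had 547 CPM in the library labelled NI1, 273 CPM in NI2 and 304 CPM in NI3. Its log2 fold change was 1.36 (SE 0.49, adjusted p = 0.185) and 1.74 (SE 0.57, adjusted p = 0.0923), so that it did not pass. Spp1, osteopontin, had 119, 11.1 and 65.6 CPM in functional tumors, below the 163 to 216 CPM of non-functional tumors and the 123 to 244 CPM of islets. Apoe and Spp1 are also made by cells other than macrophages.

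Of the polarization and cytokine genes, Arg1 and Nos2 rose in tumors without the library labelled NI1, and Il1b did not pass in either fit. Arg1 (ENSMUSG00000019987, chromosome 10, 24915221 to 24927484), arginase of alternatively activated macrophages, had 55.8, 29.2 and 79.5 CPM in functional tumors, and 33.3, 55.2 and 92.8 CPM in non-functional tumors. It had 83.1 CPM in the library labelled NI1, 10.5 CPM in NI2 and 17.0 CPM in NI3, so that the library labelled NI1 was higher than 5 of 6 tumors. M6 was the highest tumor in Arg1, whereas M4, the highest tumor in 28 of the 41 genes, had 33.3 CPM. Arg1 differed by a log2 fold change of 0.64 (SE 0.62, adjusted p = 0.589) and 2.07 (SE 0.50, adjusted p = 0.0368) without that library. Nos2 (ENSMUSG00000020826, chromosome 11, 78920787 to 78960254), the inducible nitric oxide synthase of classically activated macrophages, had 7.74, 2.49 and 8.38 CPM in functional tumors, and 6.82, 5.36 and 3.98 CPM in non-functional tumors. It had 2.85 CPM in the library labelled NI1, 0.781 CPM in NI2 and 0.471 CPM in NI3. For Nos2 the log2 fold change was 2.08 (SE 0.65, adjusted p = 0.163) and 3.20 (SE 0.63, adjusted p = 0.0192) without that library. Under 21 alternatives the adjusted p of Arg1 and Nos2 lay between 1.48e-06 and 0.932. Which cells held the Arg1 and Nos2 counts was not tested.

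The inflammatory cytokines Il1b and Tnf were at low levels in every library. Il1b, interleukin-1β, had 0.907, 1.6 and 2.02 CPM in functional tumors, and 3.8, 2.21 and 2.67 CPM in non-functional tumors, against 3.86 CPM in the library labelled NI1, 6.44 CPM in NI2 and 3.99 CPM in NI3. All tumors lay below the islets, M4 by the narrowest margin, with a log2 fold change of -1.12 (SE 0.44, adjusted p = 0.214) and -1.25 (SE 0.52, adjusted p = 0.161) without that library. Under 20 alternatives the adjusted p of Il1b lay between 0.0169 and 0.642. Tnf, tumor necrosis factor, was not tested, and it had 115 counts in the 6 tumors and 106 in the 3 islet libraries, with a pooled ratio of 0.508 (95% exact interval 0.387 to 0.668). It lay between 0.161 and 0.545 CPM in tumors, and in islets at 0.463, 1.56 and 0.372 CPM, so that the groups overlapped. Of 12 genes of the dissociation response, which cells switch on while a tissue is taken apart, 10 fell in tumors with 9 libraries, and their sum was 106 to 177 CPM in tumors, 651 CPM in the library labelled NI1, and 2795 and 1528 CPM in NI2 and NI3. Their part in the levels of Il1b and Tnf was not tested.

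**Figure D2:**
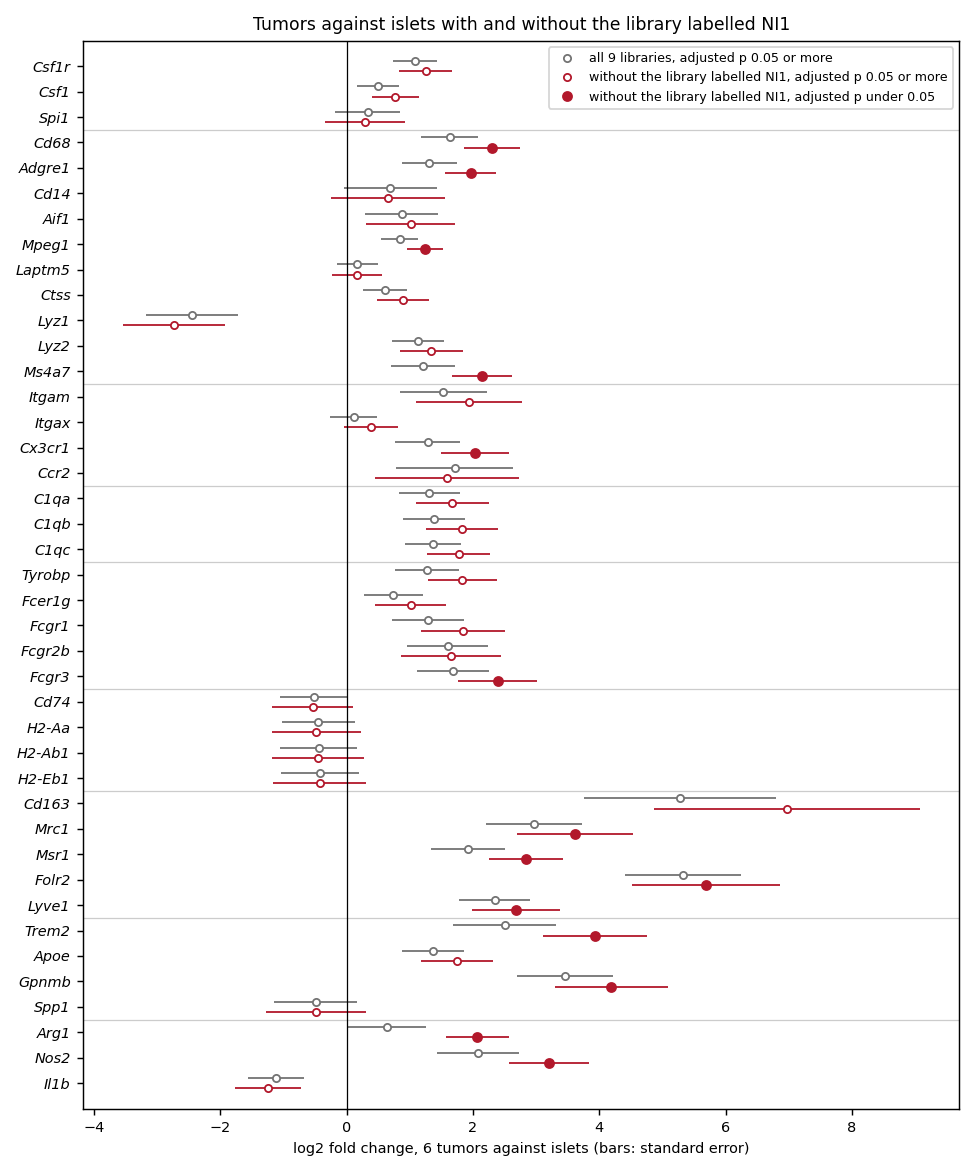
Log2 fold change in 6 tumors against islets for the 41 tested genes, grouped by role as above, with bars for the standard error. Grey points are from all 9 libraries and red points from 8 libraries, without the one labelled NI1, and filled points have an adjusted p under 0.05. No grey point is filled and 14 red points are, all to the right of 0, and the 4 MHC class II genes lie left of 0 in both fits.

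The MHC class II genes, which present peptides to helper T cells, had fewer counts in functional tumors than in all other libraries. Their log2 fold changes in tumors against islets were -0.42 to -0.52 with 9 libraries and did not pass the test. H2-Aa (ENSMUSG00000036594, chromosome 17, 34282744 to 34287823), the α chain of the I-A molecule, had 36, 67.3 and 93.1 CPM in functional tumors, and 388, 128 and 156 CPM in non-functional tumors. The islets were tight, at 191 CPM in the library labelled NI1, 192 CPM in NI2 and 212 CPM in NI3. Cd74, the invariant chain that guides class II molecules and the most abundant of the 4 per length, had 100.2, 204 and 242 CPM in functional tumors, and 879, 334 and 444 CPM in non-functional tumors. It had 509, 504 and 562 CPM in the 3 islet libraries. H2-Ab1, the β chain of I-A, had 28.6, 55.9 and 85.1 CPM in functional tumors, 349, 107 and 134 CPM in non-functional tumors, and 169, 178 and 167 CPM in islets. H2-Eb1, the β chain of the I-E molecule, had 31.2, 62.9 and 92.8 CPM in functional tumors, 401, 123 and 146 CPM in non-functional tumors, and 188, 191 and 195 CPM in islets. In all 4 genes the 3 functional tumors lay below the 3 non-functional tumors and below all 3 islet libraries, and the non-functional tumors lay on both sides of the islets, with M4 above them and M5 and M6 below.

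The log2 fold change in functional against non-functional tumors was -1.78 for H2-Aa (SE 0.46, unadjusted p = 0.00374), -1.80 for H2-Ab1 (SE 0.50, unadjusted p = 0.00539), -1.84 for H2-Eb1 (SE 0.50, unadjusted p = 0.00507) and -1.60 for Cd74 (SE 0.42, unadjusted p = 0.00421). The adjusted p was 0.455 for each, so that none passed in edgeR. DESeq2 called 4 of the 41 genes lower in functional tumors, and these were the 4 class II genes, with adjusted p from 0.0289 to 0.0429, where it called 0.573% of all genes lower. Without M4, the highest tumor in all 4, the edgeR log2 fold changes were -1.11 for H2-Aa, -1.08 for H2-Ab1, -1.10 for H2-Eb1 and -1.09 for Cd74, with unadjusted p = 0.0138, 0.0243, 0.0218 and 0.0172. In functional tumors against islets, H2-Aa had a log2 fold change of -1.60 (SE 0.46, adjusted p = 0.126), and -1.63 (SE 0.52, adjusted p = 0.0934) without the library labelled NI1. DESeq2 with 9 libraries called 5 of the 41 genes lower in functional tumors than in islets, the 4 class II genes (adjusted p from 0.00809 to 0.0213) and Il1b, where it called 5.03% of all genes lower. In non-functional tumors against islets H2-Aa had a log2 fold change of 0.18 (SE 0.45, adjusted p = 0.863).

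The 4 class II genes moved together from library to library. The counts of H2-Ab1 were 0.786 to 0.928 of those of H2-Aa in the 9 libraries, those of H2-Eb1 were 0.869 to 1.03 of them, and those of Cd74 were 2.26 to 3.03 of them. Against the C1q genes they did not. The summed level of the 4 class II genes was 8.15 and 13.9 times that of the 3 C1q genes in NI2 and NI3, 5.12 times in the library labelled NI1, 3.78, 1.33 and 3.73 times in M4, M5 and M6, and 1.1, 0.906 and 2.27 times in M1, M2 and M3. Dendritic cells and B cells also carry class II molecules. The sum of 8 dendritic cell markers was 4.44 to 9.8 CPM in functional tumors, 9.94 to 26.3 CPM in non-functional tumors and 17.9 to 32.6 CPM in islets. In the lymphoid list 2 of 12 tested genes fell in tumors with 9 libraries, among them the B cell gene Ms4a1 (28.6 CPM at most in islets, 1.78 CPM at most in tumors). The part of these cells in the class II levels was not tested.

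Because these genes kept a nearly fixed proportion, the start regions of H2-Aa and H2-Eb1 are printed. Each holds once the Y box of class II promoters, CTGATTGG, searched on both strands, which 3 of the 30 genes with a listed window hold (Spp1 is the third), as do 4.1% of all 32851 windows. They cover chr17:34287774-34288073 on the minus strand for H2-Aa and chr17:34305617-34305916 on the plus strand for H2-Eb1 (RefSeq, GRCm38.p6), and the capitals mark the Y box. Neither holds the PU.1-type motif given for C1qc, and a match describes the letters only.
H2-Aa: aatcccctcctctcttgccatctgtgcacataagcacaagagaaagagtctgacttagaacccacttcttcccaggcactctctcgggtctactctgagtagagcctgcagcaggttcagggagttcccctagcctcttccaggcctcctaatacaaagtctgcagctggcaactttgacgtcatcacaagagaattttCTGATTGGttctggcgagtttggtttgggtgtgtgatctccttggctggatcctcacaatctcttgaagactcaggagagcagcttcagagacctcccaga
H2-Eb1: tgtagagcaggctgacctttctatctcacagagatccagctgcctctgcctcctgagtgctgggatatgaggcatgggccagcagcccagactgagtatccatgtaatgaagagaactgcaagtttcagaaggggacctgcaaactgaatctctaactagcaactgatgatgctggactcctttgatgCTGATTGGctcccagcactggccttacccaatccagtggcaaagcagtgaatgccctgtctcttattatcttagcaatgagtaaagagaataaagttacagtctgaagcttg

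**Figure D3:**
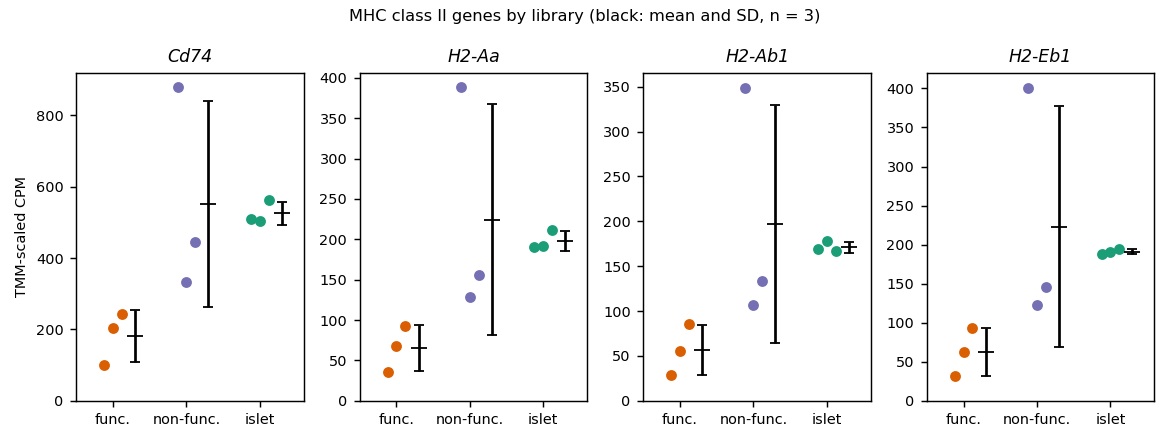
Level of Cd74, H2-Aa, H2-Ab1 and H2-Eb1 in TMM-scaled CPM, on an axis that starts at 0, in functional tumors (orange), non-functional tumors (purple) and islets (green, the library labelled NI1 first). Points are libraries and the black bars are the mean and SD (n = 3). In each panel the 3 functional tumors lie below the other 6 libraries, and 1 non-functional tumor, M4, lies above the rest.

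In functional against non-functional tumors 0 of 41 genes were called in edgeR, where 0% of all genes were. The log2 fold change was below 0 for 36 of 41 genes, with a median of -0.80 against 0.01 over all genes. At an unadjusted p under 0.05, 11 of 41 genes were lower in functional tumors and 0 were higher, where 5.58% of all genes were lower and 4.71% higher. Without M4 the median was -0.44, and 5 of 41 were lower at an unadjusted p under 0.05, where 4.73% of all genes were. With all 9 libraries the 11 were, beside the 4 class II genes, Spi1, Aif1, Laptm5, Ctss, Tyrobp, Fcer1g and Spp1. In 12 of 41 genes the functional tumors lay below the non-functional tumors without overlap, where 6.24% of all genes did. They lay below all islets in 8 of 41 genes, where 13.6% of all genes did, and these were Laptm5, Lyz1, Spp1, Il1b and the 4 class II genes. Aif1, the cytoskeletal protein IBA1 of macrophages, had 4.88, 7.42 and 7.11 CPM in functional and 27.1, 20.1 and 8.74 CPM in non-functional tumors, with a log2 fold change of -1.53 (SE 0.47, unadjusted p = 0.00937, adjusted p = 0.455). Spi1 had 4.96, 5.93 and 9.14 CPM in functional and 28.2, 14.9 and 8.34 CPM in non-functional tumors, so that M6 fell among the functional tumors. Without M4 the log2 fold change of Spi1 went from -1.36 (unadjusted p = 0.0136) to -0.80 (unadjusted p = 0.0825).

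Each tumor group was also set against islets on its own. In functional tumors 0 of 41 genes were called with 9 libraries, where 0.476% of all genes were, and 9 rose without the library labelled NI1, where 5.15% of all genes rose. In non-functional tumors 0 were called with 9 libraries, where 0% of all genes were, and 12 rose without that library, where 2.90% of all genes rose. Of these, 7 rose in both (Cd68, Adgre1, Mpeg1, Ms4a7, Msr1, Trem2 and Nos2). Folr2 and Gpnmb passed in functional tumors only, and Cx3cr1, C1qb, C1qc, Tyrobp and Fcgr3 in non-functional tumors only, but both comparisons share the islets, and the direct comparison called none of these 7 genes. Folr2 and Gpnmb had log2 fold changes of 0.53 (SE 0.77) and 0.80 (SE 0.72) in functional against non-functional tumors, and Cx3cr1, C1qb, C1qc, Tyrobp and Fcgr3 of -1.0, -1.03, -0.87, -1.10 and -0.96.

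Single tumors set much of the range. Of the 41 tested genes M4 was the highest tumor in 28, M5 in 5, M2 and M3 in 3 each and M6 in 2. The share of all tested genes in which M4 was highest is not given, so a trait of that whole library cannot be told apart. The 42 genes summed to 6042 CPM in M4 and 4543 CPM in M5, against 2669 CPM in M6, 1802, 2334 and 2532 CPM in M1, M2 and M3, 2779 CPM in the library labelled NI1, and 2232 and 2029 CPM in NI2 and NI3. M4 is also the library with the largest share of mitochondrial counts. Its TMM scaling factor was 0.693, against 1.038 to 1.32 in the other tumors. In the fit without it and the library labelled NI1, 12 of 41 genes rose, where 4.53% of all genes did. The balance within a tumor varied. Counts of Mrc1 were 0.531, 0.288 and 0.646 of those of Laptm5 in M1, M2 and M3, 0.557 in M4, 0.137 in M5 and 0.158 in M6, and 0.0356 to 0.0993 in the islets. Counts of Trem2 were 0.138 to 0.372 of those of Laptm5 in the 6 tumors, with M5 highest, 0.0985 in the library labelled NI1, and 0.00897 and 0.023 in NI2 and NI3.

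**Figure D4:**
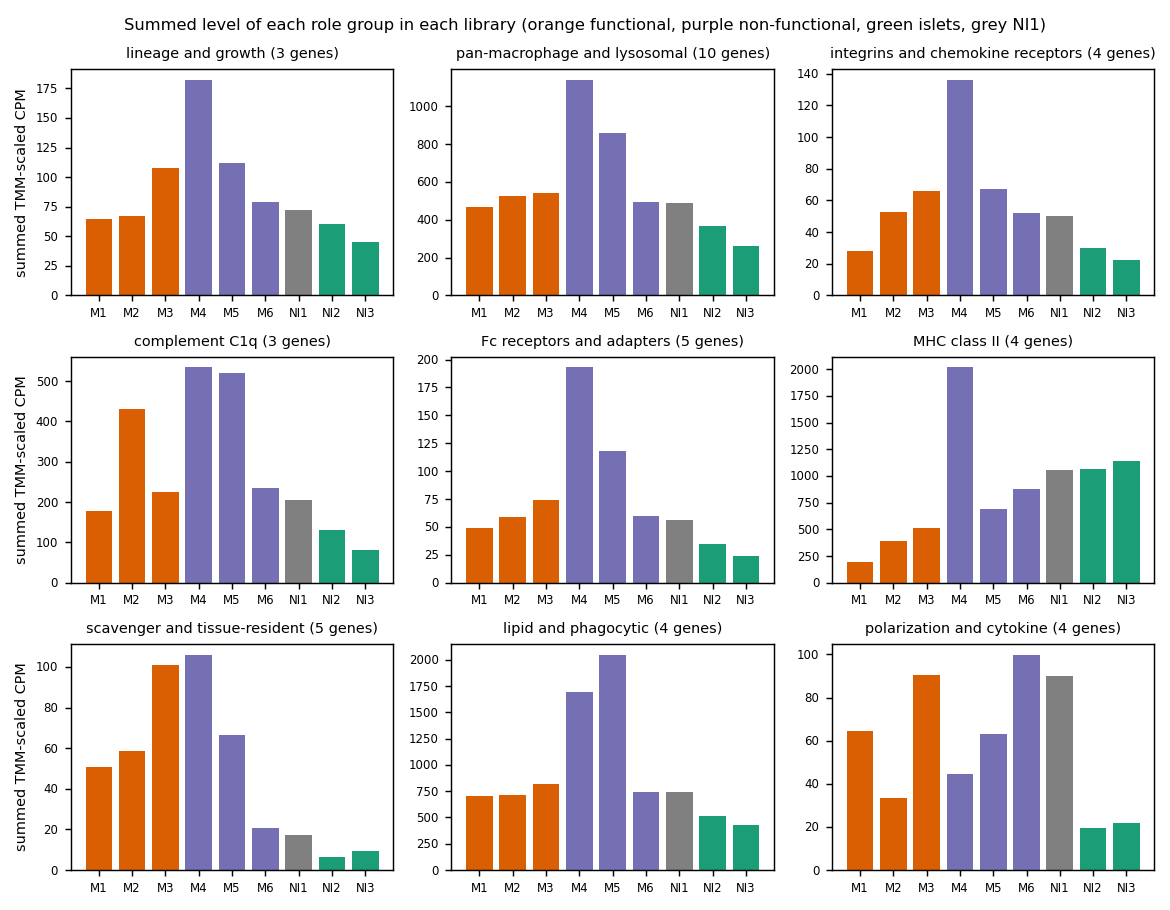
Summed TMM-scaled CPM of the genes of each role group in each library, on axes that start at 0, with functional tumors in orange, non-functional tumors in purple, NI2 and NI3 in green and the library labelled NI1 in grey. M4 is the highest bar in 7 of 9 panels. The MHC class II sum is 196, 390.1 and 513 CPM in M1, M2 and M3 and 1057 to 1136 CPM in the islets, and the scavenger sum is 50.9 to 106 CPM in M1 to M5, 20.7 CPM in M6 and 6.25 and 9.15 CPM in NI2 and NI3.

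Other genes of the same pathways were counted from 6 further lists. With 9 libraries 3 of 90 tested genes fell in tumors and 0 rose, where 0.258% of all genes fell and 0% rose. These 3 were H2-DMb2, a class II editing subunit (log2 fold change -3.72, SE 0.56, adjusted p = 0.029), Fcer2a, the low-affinity IgE receptor (-4.14, SE 0.67, adjusted p = 0.0437), and Fcmr, the receptor for IgM (-4.65, SE 0.69, adjusted p = 0.029). B cells are known to make all 3. Without the library labelled NI1, 10 rose and 6 fell, where 5.34% of all genes rose and 3.17% fell. This balance changed when M4 was left out as well. Without that library and M4, 7 rose and 15 fell, where 4.53% of all genes rose and 2.59% fell. Among 46 other macrophage genes 6 rose and 1 fell without the library labelled NI1 (median log2 fold change 0.29), and 3 rose and 5 fell without it and M4 (median -0.08). The genes named next are from the fit without the library labelled NI1 alone. Among the risen genes were Retnla and Slc11a1, with log2 fold changes of 6.20 and 1.98, although Retnla had 3.44 CPM at most. The fallen gene was Ptprc, the CD45 antigen of all white blood cells (-1.67, SE 0.35, adjusted p = 0.0237), with 15.2 to 40.6 CPM in tumors and 61.3 and 73.7 CPM in NI3 and NI2. Among 13 myeloid chemokines Ccl6 and Pf4 rose, by 3.06 (SE 0.77, adjusted p = 0.0418) and 3.60 (SE 0.89, adjusted p = 0.0391), and 0 fell. Among 10 other complement genes the anaphylatoxin receptors C5ar1 and C3ar1 rose, by 3.98 (SE 0.74, adjusted p = 0.0156) and 2.57 (SE 0.51, adjusted p = 0.0192), and 0 fell. Among 11 other genes of the class II pathway 0 rose and 3 fell (H2-DMb2, H2-Ob and H2-Oa), among 4 other Fc receptors 0 rose and 2 fell (Fcer2a and Fcmr), and among 6 genes of the CSF1 and IL34 axis 0 were called.

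Markers of the other cells that a tumor or islet can hold were read in the same fit. Without the library labelled NI1, 0 of 7 fibroblast genes fell and 1 rose, and 1 of 2 tested mast cell genes rose, where 5.34% of all genes rose. The mast cell gene that rose was Kit, with 16.3 to 69.2 CPM in tumors. The other tested mast cell gene, Tpsb2, had 2.02 CPM at most, and Cpa3, Mcpt4, Cma1 and Ms4a2 did not reach the level for a test. In the same fit 5 of 12 lymphoid, 1 of 6 dendritic cell, 1 of 11 acinar, 1 of 8 β-cell and 1 of 5 other islet cell genes fell. Of the dissociation response 11 of 12 genes fell, where 3.17% of all genes did. The acinar and lymphoid counts changed when a single tumor was left out as well. Only M6 and M4 were left out in this way, a choice made after seeing the data. Without M6 as well 10 of 11 acinar genes fell, where 3.59% of all genes did, and without M4 as well 10 of 12 lymphoid genes fell, where 2.59% of all genes did. In the fit without the library labelled NI1 alone, none of the ductal, endothelial and erythrocyte genes was called. The fibroblast sum was 42.6 to 132 CPM in functional tumors, 17.6 to 262 CPM in non-functional tumors and 33.8 to 80.3 CPM in islets, with M4 highest, as it was for most macrophage genes. The part of these cells in the levels of the macrophage and myeloid genes was not tested.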

How the data were processed

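RNA was sequenced as single-end reads from 6 INS-p25OE tumors and 3 normal islet samples. The authors trimmed reads with Trimmomatic 0.38 and quantified transcripts with Salmon 1.4.0 on mm10, and deposited estimated counts per gene as whole numbers, not scaled between libraries, in a table named as TPM. Its columns sum to 36468280 to 63637175, so the values were used as counts without rounding. How transcripts were summed to genes, and the strand setting, were not given in the sources used here.

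Symbols and GRCm38 coordinates came from GENCODE (54094 of 54347 genes matched). The 15532 genes that reached 1 CPM in 3 or more of the 9 libraries were tested in edgeR 4.0.16 (R 4.3.3), with TMM factors and a two-sided quasi-likelihood F-test. P-values were adjusted by Benjamini-Hochberg over these genes, with a threshold of 0.05. Tumors were tested as 1 group against islets, and each tumor group in a fit of 3 groups. Standard errors are the log2 fold change divided by the square root of F. CPM per kb uses the union of exons. Means carry the SD. DESeq2 1.42.0 and limma 3.58.1 were alternatives. The fits were tested on simulated counts.

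The genes, the lists and their tests were chosen with earlier results of these data known. By rule, values in every library are given for genes past the threshold in any comparison with or without the library labelled NI1, for genes with separate tumors and islets, and for the most abundant gene per length of each group. From each further list up to 3 genes a direction are named, and some genes of these lists are not reported here. Other genes named were chosen after their values were seen. Intervals cover counting error only.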

Additional observations from a re-analysis of the deposited data

Results flagged for a closer look

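In 13 of 50 measures tested (the 41 genes and the 9 group sums) 1 of the 6 tumors lay farther from the others than Dixon's 95% critical value allows. For normally distributed values about 1 in 20, or 2.5, would be flagged. CPM on a linear scale need not be so distributed, and the share flagged over all tested genes is not given. The 13 can therefore not be read as a trait of these genes. In 12 of them the tumor was M4, the library with 32.12% mitochondrial counts. Its level was 113 CPM for Csf1r, 45.0 CPM for Adgre1, 16.4 CPM for Cd14, 192 CPM for Mpeg1, 42.8 CPM for Ccr2, 56.8 CPM for Fcgr2b, 44.5 CPM for Fcgr3 and 8.01 CPM for Msr1. For the class II genes it was 388 CPM for H2-Aa, 349 CPM for H2-Ab1 and 401 CPM for H2-Eb1, where the next tumor had 156, 134 and 146 CPM. The sum of the 4 integrins and chemokine receptors was 136 CPM in M4 and 67.4 CPM in the next tumor. The other was Cd163 in M3, at 5.85 CPM, where the next tumor had 1.98 CPM. The genes share their libraries, so these outliers are not independent of each other.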

How the results depend on the processing

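The counts of macrophage and myeloid genes called depended on the tool, the threshold and single libraries. In tumors against islets, 0 genes were called in edgeR with 9 libraries, and with other scaling, a minimum of 5 CPM, limma-trend or mitochondrial genes removed. A pair of percentages in parentheses below is the share of all tested genes called higher and lower. The count was 26 at an unadjusted p under 0.05 (10.7%, 9.14%), and 1 at an adjusted p under 0.1 (0.0193%, 0.483%). It was 1 without the filter (0.019%, 0.31%) and 1 with the mean of both tumor groups (0.0258%, 0.605%). DESeq2 called 15 (4.92%, 3.14%), and limma's voom with library weights called 24 (13.4%, 13.5%). With each library left out in turn it was 0 to 14. The highest was without the library labelled NI1 (5.34%, 3.17%), and it was 3 without M6 (0.522%, 0.876%). Choices made after seeing the data gave 23 in DESeq2 without the library labelled NI1 (12.3%, 6.7%). They gave 14 without it and M6 (5.75%, 3.59%), and 12 without it and M4 (4.53%, 2.59%). In functional tumors against islets the count of 0 became 17 at an unadjusted p under 0.05 (11.3%, 9.82%), with 10 higher and 7 lower. It was 2 at an adjusted p under 0.1 (0.734%, 1.44%), 4 without the filter (0.608%, 0.763%) and 1 in limma-trend (0.174%, 0.682%). It was 11 in DESeq2 (4.99%, 5.03%), 21 in voom (12.5%, 9.76%) and 21 in DESeq2 without the library labelled NI1 (11.4%, 7.8%). With each library left out it was 0 to 9. It was 9 without the library labelled NI1 (5.15%, 2.85%), 2 without M6 (0.2%, 0.56%) and 1 without M4 (0.142%, 0.67%). In non-functional tumors against islets the count of 0 became 28 at an unadjusted p under 0.05 (8.27%, 6.19%). It was 14 in DESeq2 (1.56%, 0.979%), 19 in voom (5.4%, 2.4%) and 26 in DESeq2 without the library labelled NI1 (10.6%, 5.22%). With each library left out it was 0 to 12, and it was 12 without the library labelled NI1 (2.9%, 1.15%). In functional against non-functional tumors the count of 0 became 11 at an unadjusted p under 0.05 (4.71%, 5.58%) and 4 in DESeq2 (0.142%, 0.573%). It stayed at 0 in the other alternatives. The count of 3 genes in the further pathway lists (0 higher, 3 lower) became 16 without the library labelled NI1 (10 higher, 6 lower), 19 in DESeq2 (11 higher, 8 lower), 16 without that library and M6 (11 higher, 5 lower), and 22 without it and M4 (7 higher, 15 lower), where most were lower. The cause of the differences between tools was not tested.

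Alternatives were computed gene by gene for 20 of the 41 genes, and C1qa, Apoe and Cd163 are not among them. Of these 20, 17 passed the threshold in some comparison with or without the library labelled NI1. The others had tumors and islets without overlap. Genes with small differences, such as Laptm5 and Itgax, were not run in this way. None of the 20 changed direction in tumors against islets in 416 alternative values. Of these values, 95 passed the threshold that the value with 9 libraries did not. The 20 were picked for their differences in these same libraries. The absence of a reversal therefore cannot decide how stable the direction of the 41 genes is. Functional tumors and islets share numbers 1 to 3 in the labels. Deviations of same-numbered samples from their group means correlated at -0.0516, 0.03 and -0.159, and those of differently numbered samples at -0.115 to 0.177. With only 3 libraries behind each group mean, these values cannot decide whether the numbers pair samples. With a replicate block in these 6 libraries 0 genes were called, where 0.0644% of all genes were higher and 0.161% lower. Without the block 2 were called, where 0.264% of all genes were higher and 0.573% lower. A count of 3 stood for 0.0425 to 0.119 CPM, which limits Folr2, Cd163 and Tnf in islets.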
